A study of Mus musculus with 6 samples.

Results

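Oxidative phosphorylation runs on 5 protein complexes of the inner mitochondrial membrane, and this account follows the nuclear genes that encode their subunits in mouse inner medullary collecting duct (IMCD) cells. Genes were taken by symbol (Nduf for complex I, Sdh for II, Uqcr and Cyc1 for III, Cox4 to Cox8 for IV, Atp5 for V) from array probe sets annotated with a single gene, and 79 of the 22180 genes with a value were taken. They comprise 33 genes of complex I, 4 of complex II, 8 of complex III, 17 of complex IV and 17 of complex V. Pseudogene symbols were dropped, which removed Atp5c1-ps and Uqcrh-ps1. A further 8 symbols (Cox6c, Ndufb2, Ndufb4, Ndufb4b, Ndufb4c, Ndufs6, Ndufs6b and Uqcr10) were listed only on probe sets shared with other symbols and have no value here.

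IMCD cells are an epithelial line of the renal collecting duct. In the T173I group (3 arrays) they stably carried a lentivirus encoding GFP and the missense variant ILK-T173I, and in the WT group (3 arrays) the same vector with wild-type ILK. The ILK protein (integrin-linked kinase) joins integrins to actin at focal adhesions. Cells of both groups were given EGF at 20 ng/ml for 15 minutes and extracted after 1 hour of incubation, so the comparison bears on variant against wild-type ILK under EGF and holds no arm without EGF or without an ILK vector. The labels call the arrays biological replicates and do not say how many lines stand behind a group; with 1 line a group, line and variant cannot be told apart. Whether replicates came from separate cultures is also not stated, so p-values measure the spread between these arrays.

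In the respiratory chain, complex I takes electrons from NADH and complex II takes them from succinate, the step at which the chain meets the tricarboxylic acid cycle. Complex III passes them to cytochrome c, complex IV passes them to oxygen, and the proton gradient built along the way drives ATP synthesis by complex V. Most subunits are encoded in the nucleus and a small core in mitochondrial DNA. Tubule cells of the kidney depend on this machinery for ion transport to a degree that differs along the nephron, with the inner medulla relying more on glycolysis.

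The T173I arrays were less alike than the WT arrays. Correlations over the 13308 genes tested were 0.964 to 0.983 within T173I and 0.989 to 0.993 within WT, and the first principal component placed T173I replicate 2 at 38.3 and replicate 3 at 15.8, while T173I replicate 1, at -11.4, lay among the WT arrays at -18.3 to -11.3. On the second component T173I replicate 1 was at -19.4, outside the WT arrays at -0.46 to 15.8. Values without T173I replicate 1 or 2 are therefore given for the summaries and for several genes. The epithelial marker Cdh1 was bright (log2 signal 11.2 to 11.4 on the T173I arrays and 11.3 on each WT array). Of 14 epithelial markers 13 were above the filter on low signal, and the other had a mean of log2 4.89. These values bear on epithelium, and the collecting duct label itself was not tested. The water channel Aqp2 was dim, at 5.97 to 6.25 on the T173I arrays and 6.01 to 6.09 on the WT arrays. All 4 endothelial markers and the leukocyte markers Ptprc and Cd3e were below that filter, with means over the 6 arrays at or under log2 5.37. The other 2 leukocyte markers, Cd68 and Csf1r, were above it, the brighter of them with a mean of log2 8.49. Of 7 fibroblast and stroma markers 3 were above the filter, Col1a1, Col1a2 and Postn, the last at 8.05, 5.49 and 4.30 on T173I replicates 1 to 3 and 4.66 to 6.26 on the WT arrays. Of the epithelial markers Krt8, Krt18, Krt7 and Gata3 had an unadjusted p under 0.05, with differences, T173I minus WT, of 0.64, 0.44, 0.41 and -0.78, and of the leukocyte markers Cd68 and Csf1r did, with 1.10 and -0.78. That is 30.8% of the 13 tested epithelial markers and 100% of the 2 tested leukocyte markers, against 10.2% of all genes tested. None of these 6 passed the adjusted threshold (limma adjusted p = 0.45 for each), and their part in the results was not tested.

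The promoters of 6 genes are shown, those of the genes with an entry whose T173I arrays all lay below the WT arrays and, with an unadjusted p under 0.05, of Cox5b; 3 of the 6 stretches hold a match and 3 do not. Each stretch is the 150 bases before the annotated start (RefSeq, GRCm38.p6), 5′ to 3′ on the strand of the gene. Capitals mark a motif or its reverse complement, searched on both strands of the 300-base window around the start: the NRF1-type palindrome and its looser form with any base before the central T, CCGGAAG (Ets and GABP-type), GCCATNTT (YY1-type) and AAGATGGCG, a longer form that contains the reverse complement of GCCATNTT. The Sdha stretch is chr13:74350241-74350390, minus strand; that of Cox6b1 is chr7:30626115-30626264, minus strand; that of Atp5j is chr16:84834977-84835126, minus strand, 1 of its 2 annotated starts, the other having no match. The stretches with no match are those of Ndufa13, chr8:69902021-69902170, minus strand; Atp5pb, chr3:105959264-105959413, minus strand; and Cox5b, chr1:36691337-36691486, plus strand. Atp5pb has a GCCATNTT match elsewhere in its window.
Sdha: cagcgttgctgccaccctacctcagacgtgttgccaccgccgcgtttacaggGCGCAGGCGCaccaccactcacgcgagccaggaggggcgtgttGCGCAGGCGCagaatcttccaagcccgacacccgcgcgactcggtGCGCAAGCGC
Cox6b1: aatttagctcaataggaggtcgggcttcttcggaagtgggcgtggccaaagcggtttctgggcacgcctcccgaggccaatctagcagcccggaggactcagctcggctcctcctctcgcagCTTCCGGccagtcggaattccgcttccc
Atp5j: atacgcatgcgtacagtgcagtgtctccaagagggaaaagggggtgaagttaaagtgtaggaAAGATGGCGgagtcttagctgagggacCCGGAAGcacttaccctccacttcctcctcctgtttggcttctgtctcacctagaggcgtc
Ndufa13: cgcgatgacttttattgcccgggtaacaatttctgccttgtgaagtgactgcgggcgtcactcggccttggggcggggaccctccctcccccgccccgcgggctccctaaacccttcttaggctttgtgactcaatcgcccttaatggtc
Atp5pb: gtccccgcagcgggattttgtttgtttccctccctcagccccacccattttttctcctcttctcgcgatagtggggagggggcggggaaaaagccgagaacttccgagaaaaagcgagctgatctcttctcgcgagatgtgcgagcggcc
Cox5b: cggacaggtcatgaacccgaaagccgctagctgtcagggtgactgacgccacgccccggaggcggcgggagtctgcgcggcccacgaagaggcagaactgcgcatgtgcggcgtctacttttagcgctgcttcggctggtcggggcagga

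Over the whole set, 64 of the 79 genes had an annotated start, with 69 windows. NRF1 and GABP are transcription factors known to act at many genes of the respiratory chain, and YY1 at several. The looser NRF1-type motif occurred in 23.2% of these windows, against 4.60% of all 32851 mouse windows and 9.20% of the windows of genes tested here. CCGGAAG occurred in 24.6%, against 8.86% and 16.1%. GCCATNTT occurred in 23.2%, against 6.05% and 7.60%, and 11 of the 16 genes that held it belonged to complex I. Complex I also supplied 29 of the 64 genes with a window. A match is a run of letters and shows no binding. Cox4i1 and Cox4i2 had no entry.

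Across the 5 complexes the RNA differences between T173I and WT cells were small and none passed the test. Of the 79 genes, 74 lay above the filter on low signal, which left out the dimmest 40% of all genes, and 0 of the 74 had a limma adjusted p under 0.05 over the 13308 genes tested (percent of all genes called, 0). Their differences, T173I minus WT, ran from -0.40 log2 units (Cox5b) to 0.35 (Cox7a1). The direction was mostly downward: 57 of the 74, or 77.0%, had a lower mean in T173I, against 52.6% of all genes tested. The median over the 79 genes was -0.070, against -0.011 over all genes tested.

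At an unadjusted p under 0.05, 1 gene was lower (Cox5b) and 1 higher (Cox4i2), which is 2.70% of the 74, while 5.31% of all genes tested were lower and 4.88% higher at that p. In 6 genes every T173I array lay below every WT array, 8.11% of the 74 against a background of 7.95%, and in 2 genes every T173I array lay above, 2.70% against 7.23%. By these counts the share of oxidative phosphorylation genes that separated the groups was close to or below that of genes in general, whereas the share with a small negative difference was above it. Fewer cells of a kind and less RNA per cell cannot be told apart in such bulk RNA.

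**Figure D1:**
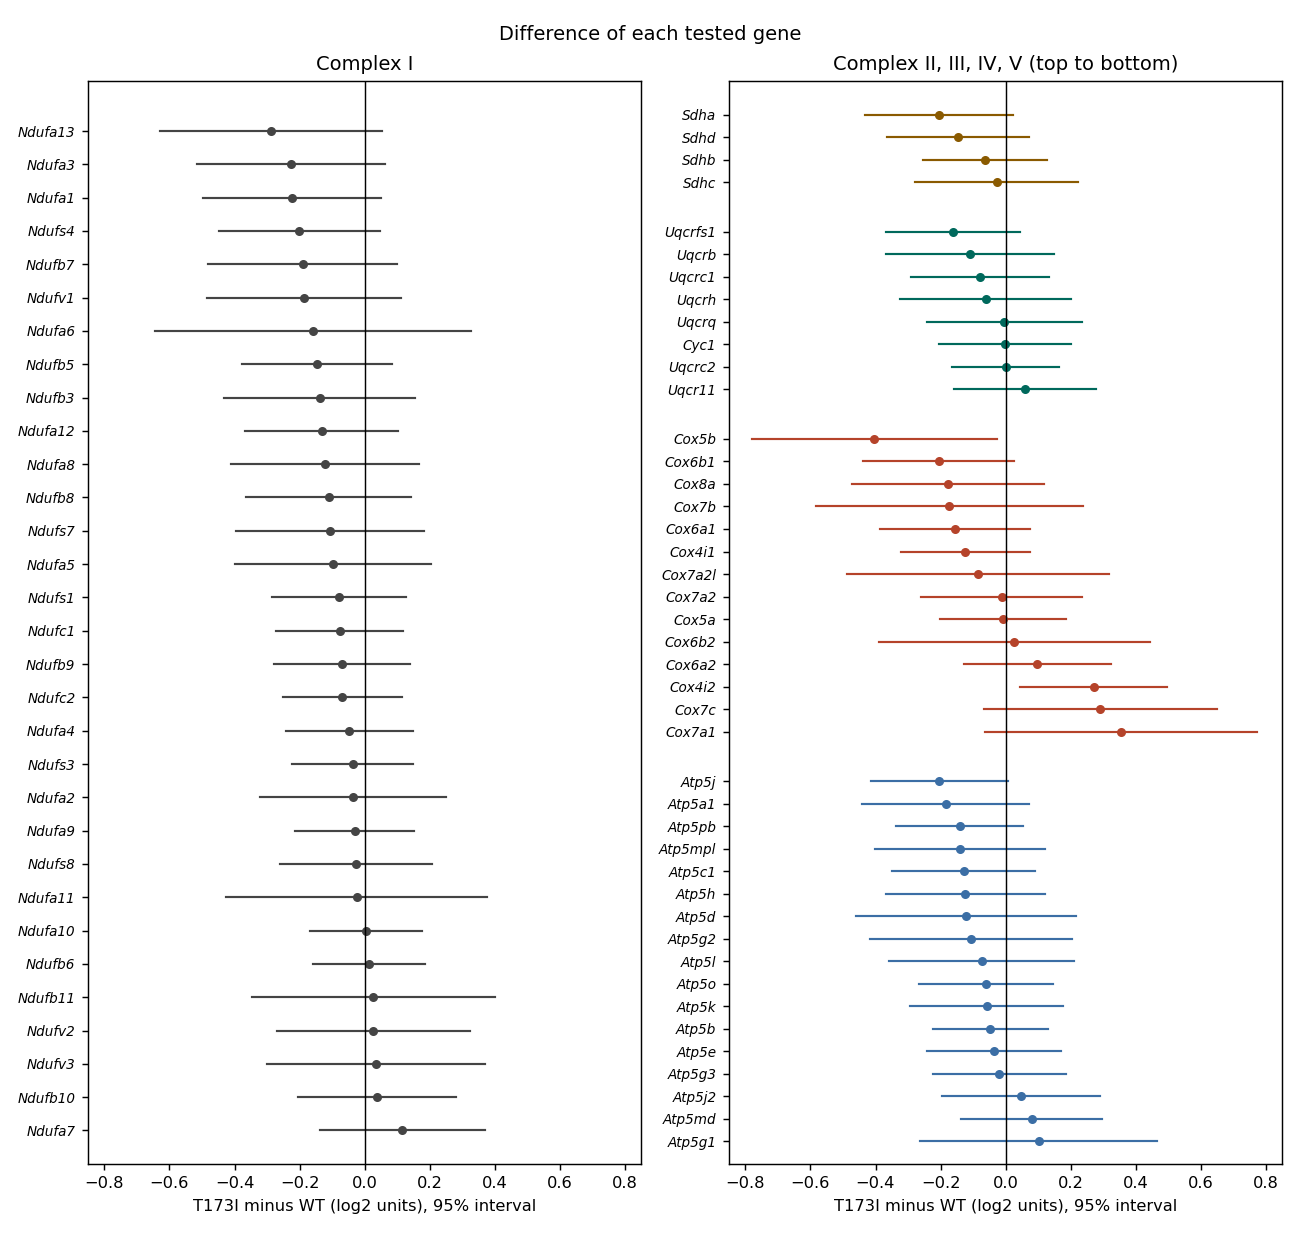
Difference T173I minus WT in log2 units (x axis) for the 74 tested genes, each with its 95% interval from limma, sorted within complex. The interval excludes 0 for 2 genes, Cox5b on the left side and Cox4i2 on the right.

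Over the 79 genes together the lower values came chiefly from T173I replicate 2, but not in every complex. Without that array the complex I median moved from -0.077 to -0.023 and that of complex IV from -0.013 to 0.0030. The complex II median moved from -0.11 to -0.093, that of III from -0.033 to -0.028 and that of V from -0.074 to -0.059. In complex III, 3 of 8 genes were below the lowest WT array on T173I replicate 2 and 5 on replicate 3. In complex V, 9 of 17 were on each of these arrays. The median over the 79 genes, taken against the WT mean, stood at -0.0094 for T173I replicate 1, at -0.15 for T173I replicate 2 and at -0.036 for T173I replicate 3. The WT replicates 1, 2 and 3 stood at 0.024, 0.0020 and -0.035. T173I replicates 1 and 3 thus lay at or near the WT range and replicate 2 below it. On T173I replicate 2, 47 of the 74 tested genes (63.5%) were below the lowest WT array, against 39.8% of all genes tested. On replicate 3 the share was 43.2% against 33.8%, and on replicate 1 it was 25.7% against 24.8%. Without T173I replicate 2, 50 of the 74 genes (67.6%) had a negative difference, against 50.1% of all genes tested, and the median was -0.046. Without T173I replicate 1, 61 genes (82.4%) did, against 54.1%, and the median was -0.094. T173I replicate 2 also had the highest median signal of the 6 arrays, 5.52 against 5.45 to 5.48 on the others, and the part of this in the result was not tested.

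**Figure D2:**
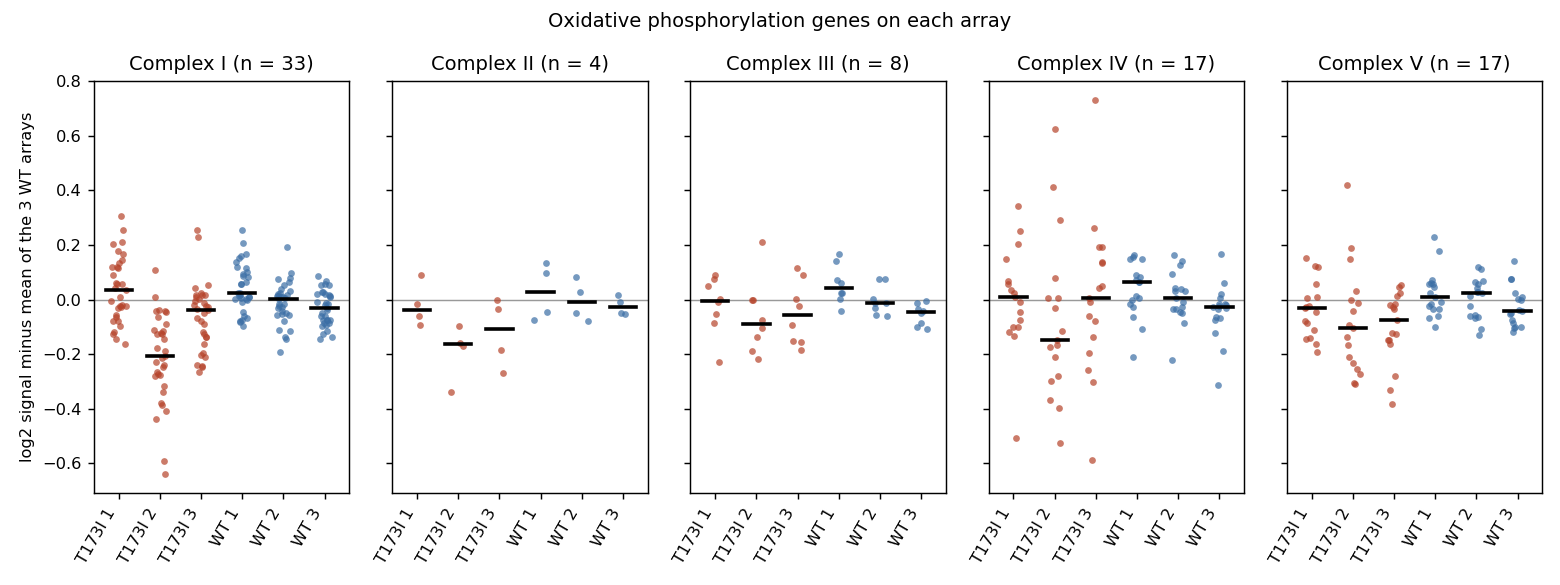
Log2 signal minus the mean of the 3 WT arrays (y axis) on the T173I arrays (red) and the WT arrays (blue), in a panel for each complex; points are genes and bars their medians. The bar of T173I replicate 2 is the lowest of the 6 in every panel, from -0.21 in complex I to -0.090 in complex III.

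The oxidative phosphorylation genes are bright on these arrays, with a median log2 signal of 9.60 in T173I and 9.73 in WT, against 7.87 in T173I and 7.89 in WT over all genes tested, so they were also set beside other genes of like signal. Among genes with a mean over log2 10, 77.4% of 31 oxidative phosphorylation genes and 41.3% of 1888 other genes lay below the lowest WT array on T173I replicate 2. Between 8 and 10, the shares were 66.7% of 27 and 42.2% of 4440. Between the filter and 8, they were 31.2% of 16 and 37.7% of 6906. The lower position on T173I replicate 2 was therefore seen in the brighter members and not in the dim ones. Over log2 10, 87.1% of the oxidative phosphorylation genes and 52.6% of the others had a negative difference; between the filter and 8, 37.5% and 53.5%.

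**Figure D3:**
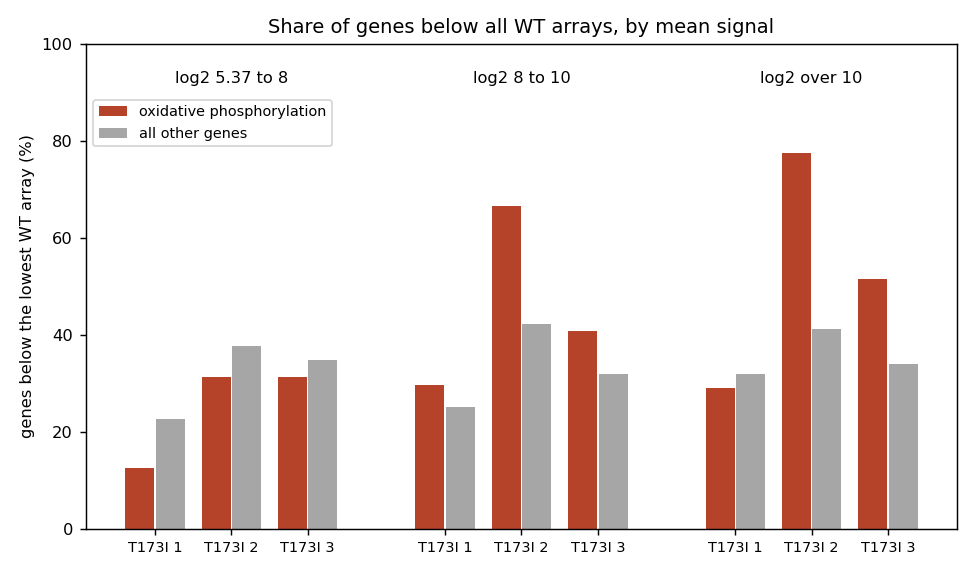
Percentage of genes below the lowest WT array (y axis) on T173I replicates 1, 2 and 3, for oxidative phosphorylation genes (red) and all other genes (grey), in 3 ranges of mean log2 signal. On T173I replicate 2 the red bars reach 66.7% and 77.4% in the upper ranges and 31.2% in the lowest.

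The complexes overlapped in signal. The median log2 signal of complex I was 9.46 in T173I and 9.66 in WT, and that of complex II 9.95 in T173I and 10.1 in WT. Complex III had 9.11 in T173I and 9.15 in WT, complex IV 8.35 in T173I and 8.43 in WT, and complex V 9.60 in T173I and 9.73 in WT. Complex IV had the widest range, from Cox7b2 at 2.52 to Cox6a1 at 13.1, because the symbol rule takes in isoforms that are restricted to other tissues. Probe sets bind their targets with unequal strength, so these levels do not rank the amounts of RNA of the complexes or of single genes. The median difference, T173I minus WT, was -0.077 for complex I, -0.11 for complex II, -0.033 for complex III, -0.013 for complex IV and -0.074 for complex V. Leaving out 1 array moved these medians to -0.11 to -0.023 for complex I, -0.15 to -0.082 for complex II, -0.075 to -0.011 for complex III, -0.088 to 0.017 for complex IV and -0.12 to -0.059 for complex V. For complex I the value nearest to 0 was that without T173I replicate 2. Whether the complexes differ from each other was not tested.

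**Figure D4:**
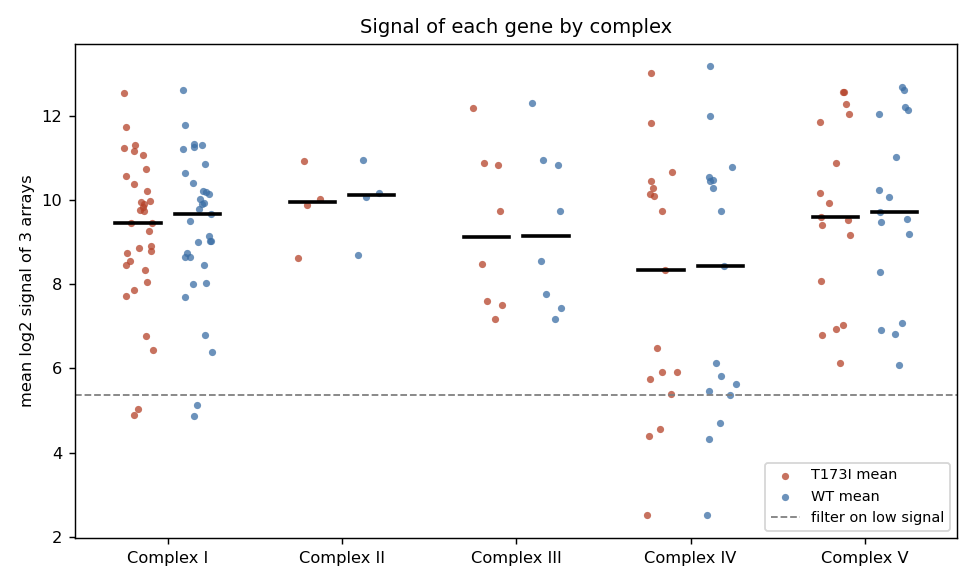
Mean log2 signal (y axis) of each gene in T173I (red) and WT (blue), 3 arrays each, by complex, with bars at the medians and a dashed line at the filter on low signal. Averaged over all 6 arrays, complex II lies between log2 8.65 and 10.9, while complex IV spreads from 2.52 to 13.1 and has 3 of the 5 genes that fall below the filter.

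Complex I, the NADH dehydrogenase, has a core of catalytic subunits surrounded by accessory ones. Of its 31 tested genes 24 (77.4%) had negative differences, against 52.6% of all genes tested. An unadjusted p under 0.05 was found for 0 of the 31, against 10.2% of all genes tested. The gene with the largest difference in this complex was Ndufa13, an accessory subunit also known as Grim19. Its log2 signal was 10.12, 9.61 and 10.01 on T173I replicates 1 to 3 and 10.26, 10.22 and 10.13 on the WT arrays. The groups did not overlap, but T173I replicate 1 was just under the lowest WT array. The difference was -0.29, a 1.22-fold lower signal, with a 95% interval of -0.63 to 0.05 (limma adjusted p = 0.52), and it was -0.14 without T173I replicate 2.

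Ndufs4, an accessory subunit whose loss in mice gives a model of Leigh syndrome, was at 9.59, 9.38 and 9.42 in T173I and at 9.82, 9.58 and 9.59 in WT. T173I replicate 1 fell inside the WT range and the other T173I arrays below it (difference -0.20, limma adjusted p = 0.52). Ndufa1, an X-linked subunit of the membrane arm, had a difference of -0.22 and Ndufa3, another accessory subunit, one of -0.23 (limma adjusted p = 0.52 and 0.54). The 6 core subunits with a value (Ndufs1, Ndufs3, Ndufs7, Ndufs8, Ndufv1 and Ndufv2) had differences from -0.19 for Ndufv1, which carries the NADH site, to 0.027 for Ndufv2. They had a median of -0.058, with 5 of 6 negative, and the 25 accessory subunits one of -0.077, with 18 negative. On T173I replicate 2 both groups were below the WT mean, the core by a median of -0.14 and the accessory subunits by one of -0.23, whereas on T173I replicate 1 they were at 0.089 and 0.035.

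The brightest complex I probe set, that of Ndufb9, was at 12.4 to 12.6 on the T173I arrays and 12.6 on each WT array. The dimmest was that of Ndufs5, at 4.71 to 5.03 in T173I and 4.79 to 4.93 in WT, below the filter. A second probe set lists Ndufs5 together with its pseudogene and read 8.67 to 8.91 in T173I and 8.64 to 9.08 in WT; which of the 2 genes it reads was not tested. Ndufa4, named as a complex I subunit and now counted with complex IV, had a difference of -0.047, and its hypoxia-responsive paralogue Ndufa4l2 was below the filter at 4.91 to 5.12 in T173I and 5.07 to 5.24 in WT.

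Complex II, succinate dehydrogenase, is the one complex with no subunit in mitochondrial DNA, and all 4 of its genes had negative differences. Sdha, the flavoprotein that oxidises succinate, was at 9.99, 9.74 and 9.90 in T173I and at 10.01, 10.16 and 10.07 in WT. All T173I arrays were below all WT arrays, replicate 1 by the narrowest margin. The difference was -0.21 with a 95% interval of -0.43 to 0.02, a 1.15-fold lower signal (limma adjusted p = 0.50).

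Sdhd, a membrane anchor, was at 10.15, 10.01 and 9.90 in T173I and at 10.12, 10.20 and 10.18 in WT. Here T173I replicate 1 lay inside the WT range (difference -0.15, limma adjusted p = 0.56). The iron-sulfur subunit Sdhb had a difference of -0.063 and the second anchor, Sdhc, one of -0.027 (limma adjusted p = 0.78 and 0.93). For Sdhc the sign turned to 0.044 without T173I replicate 2. On T173I replicate 2 all 4 genes were below the lowest WT array.

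Complex III, the cytochrome bc1 complex, had 0 of 8 genes separated between the groups and 0 at an unadjusted p under 0.05. Over all genes tested, 7.95% were separated downward, 7.23% upward, and 10.2% had such a p. Uqcrfs1, the Rieske iron-sulfur protein, was at 7.68, 7.55 and 7.58 in T173I and at 7.79, 7.84 and 7.67 in WT, a difference of -0.16 (limma adjusted p = 0.53). Uqcrc1 and Uqcrc2, the core proteins, had differences of -0.079 and 0.00027, Uqcrc2 reading 10.8 on all 6 arrays. Cyc1, which encodes cytochrome c1, differed by -0.0019 (95% interval -0.21 to 0.20). Of the small subunits, Uqcrb had -0.11, Uqcrh -0.061, Uqcrq -0.0042 and Uqcr11 0.059 (limma adjusted p = 0.71 to 0.99 for these 4 genes).

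Complex IV, cytochrome c oxidase, held both genes with an unadjusted p under 0.05, which lay in opposite directions. They were 14.3% of its 14 tested genes, against 10.2% of all genes tested. In 2 of the 14 every T173I array lay below every WT array and in 2 above. That is 14.3% each, against 7.95% and 7.23% of all genes tested. Cox5b, a matrix-facing subunit, was at 10.45, 10.02 and 9.96 in T173I and at 10.70, 10.58 and 10.36 in WT. T173I replicate 1 lay between WT replicates 2 and 3, and T173I replicates 2 and 3 lay below all WT arrays. The difference was -0.40 with a 95% interval of -0.78 to -0.03, a 1.32-fold lower signal (limma adjusted p = 0.49). Leaving out 1 array moved it to between -0.56, the value without T173I replicate 1, and -0.31 (limma adjusted p = 0.089 to 0.84). A second, dim probe set of Cox5b read 5.49 ± 0.17 in T173I and 5.59 ± 0.20 in WT (SD, n = 3 each).

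Cox4i2, the lung-enriched and hypoxia-responsive isoform of subunit 4, was at 5.68, 5.89 and 5.66 in T173I and at 5.55, 5.43 and 5.44 in WT. All T173I arrays lay above all WT arrays, at a signal only just over the filter. The difference was 0.27 with a 95% interval of 0.04 to 0.50, a 1.21-fold higher signal (limma adjusted p = 0.47). Its ubiquitous partner Cox4i1 was at 10.68, 10.57 and 10.72 in T173I and at 10.85, 10.73 and 10.76 in WT. There all T173I arrays lay below all WT arrays, and the difference was -0.12 (limma adjusted p = 0.59).

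**Figure D5:**
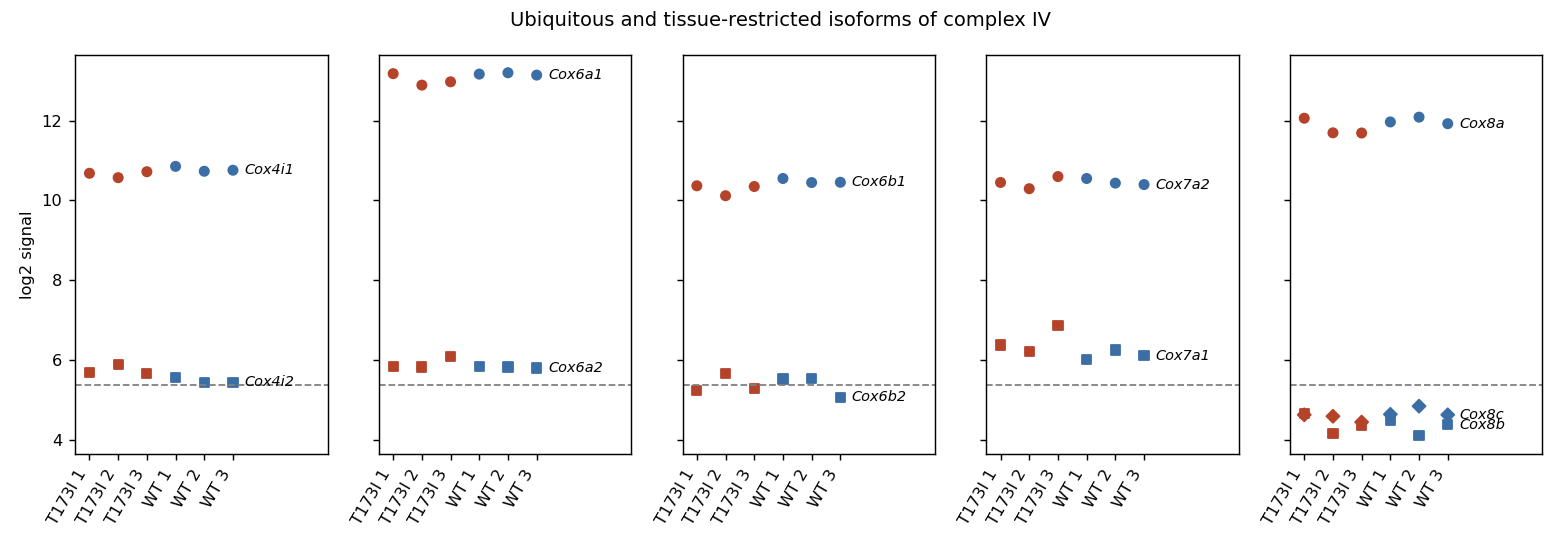
Log2 signal (y axis) on the T173I arrays (red) and WT arrays (blue) for 5 groups of complex IV isoforms, the ubiquitous one as circles and the tissue-restricted ones as squares and diamonds; the dashed line is the filter on low signal. The circles lie between 10.1 and 13.2 and the other symbols at or under 6.86, and signals of different probe sets do not rank RNA amounts.

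Of the 9 ubiquitous subunits with a value 8 had negative differences (median -0.16), and of the 7 isoforms known from other tissues 1 did, Cox8c at -0.15 (median 0.071). Of these 7, Cox7b2, Cox8b and Cox8c were untested, being below the filter, and Cox6b2 ran from -0.13 to 0.11 when 1 array was left out. The 7 had means of log2 2.52 to 6.30, and of the ubiquitous subunits only Cox7c was that dim. Tissue and signal can therefore not be told apart in this division, which was made with the values known and has no test. Cox6b1, a subunit facing the intermembrane space, was at 10.37, 10.12 and 10.35 in T173I and at 10.55, 10.45 and 10.45 in WT, without overlap (difference -0.21, limma adjusted p = 0.50). Cox6a1 had a difference of -0.16, Cox8a of -0.18 and Cox7a2 of -0.013 (limma adjusted p = 0.57, 0.61 and 0.97). Cox7b was lowest on T173I replicate 1, at 9.77, and read 10.13 and 10.41 on the other T173I arrays, with 10.15 to 10.43 on the WT arrays. Cox7c was the exception among the ubiquitous subunits: it was higher on every T173I array, at 5.69, 6.26 and 5.83 against 5.62, 5.67 and 5.62 on the WT arrays (difference 0.29, limma adjusted p = 0.52). Its probe set was dim, not far over the filter, and T173I replicate 1 was only just above the highest WT array.

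Among the isoforms of other tissues, Cox7a1, the heart and skeletal muscle form of subunit 7a, was at 6.37, 6.20 and 6.86 in T173I and at 6.01, 6.25 and 6.11 in WT. T173I replicate 2 lay inside the WT range (difference 0.35, limma adjusted p = 0.52). Cox6a2, also a muscle form, differed by 0.097 and Cox6b2, a testis form, by 0.027. The muscle form Cox8b and the testis forms Cox8c and Cox7b2 were below the filter. Striated muscle markers were dim too, all 5 (Ckm, Myog, Actn2, Myl1 and Tnnt3) at 4.60 to 6.47 on the T173I arrays and 4.62 to 6.36 on the WT arrays. Cox7a2l, which takes part in assembling respiratory supercomplexes, was at 8.58, 8.04 and 8.43 in T173I and at 8.22, 8.48 and 8.60 in WT, with T173I replicate 2 the lowest array (difference -0.085, limma adjusted p = 0.86).

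Complex V, the ATP synthase, consists of the catalytic F1 head, a peripheral stalk that holds it still and a membrane part with the rotating c-ring. Of its 17 genes 14 had negative differences, and 2, both of the peripheral stalk, were separated between the groups. That is 11.8% of the 17, against 7.95% of all genes tested with every T173I array below every WT array. Atp5j, coupling factor 6, was at 8.20, 8.02 and 8.0 in T173I and at 8.34, 8.26 and 8.24 in WT. The difference was -0.20 with a 95% interval of -0.41 to 0.01, a 1.15-fold lower signal (limma adjusted p = 0.49). Atp5pb, subunit b, was at 10.92, 10.86 and 10.88 in T173I and at 11.08, 11.09 and 10.92 in WT, where the highest T173I and lowest WT array almost met (difference -0.14, limma adjusted p = 0.55). The 4 stalk genes had negative differences at their brightest probe sets, with a median of -0.13 and none past the test; Atp5h and Atp5o overlapped between the groups, and Atp5h was at 0.028 when its probe sets were averaged.

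The 5 F1 subunits also had negative differences throughout, from -0.18 for Atp5a1 (subunit alpha) to -0.036 for Atp5e (subunit epsilon), with Atp5b, the catalytic subunit beta, at -0.047 (95% interval -0.22 to 0.13). Atp5a1 was at 12.04, 11.81 and 11.71 in T173I and at 11.97, 12.08 and 12.06 in WT, so that T173I replicates 2 and 3 were below the WT range and replicate 1 inside it. Leaving out 1 array moved its difference to between -0.28, the value without T173I replicate 1, and -0.11. The subunit gamma gene Atp5c1 had a difference of -0.13 and the stalk gene Atp5h one of -0.12 (limma adjusted p = 0.61 and 0.66). The dimmer of 2 Atp5h probe sets had the opposite sign, 6.63 ± 0.39 in T173I and 6.45 ± 0.27 in WT (SD, n = 3 each). The second probe sets of Atp5e and Cox7b also had the opposite sign to the brighter ones.

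Subunit c of the ring is encoded by 3 genes whose mature proteins are the same. Atp5g1 had a difference of 0.10, Atp5g2 one of -0.11 and Atp5g3 one of -0.020, none past the test (limma adjusted p = 0.77 to 0.94 for the 3 genes). Atp5g1 was high on T173I replicate 2 alone, at 7.25, with 6.69 and 6.86 on the other T173I arrays and 6.73 to 6.91 on the WT arrays, and without T173I replicate 2 its difference was -0.059. Of the other membrane subunits, Atp5md was higher by 0.080 and Atp5j2 by 0.048, while Atp5mpl, Atp5l and Atp5k had differences of -0.14 to -0.059 (limma adjusted p = 0.64 to 0.87 for these 5 genes).

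Genes that surround the complexes did not share one direction. Of 43 tested assembly factors 28 had negative differences (median over the 44 with a value, -0.050), and 4 were lower and 4 higher at an unadjusted p under 0.05, which is 18.6% against 10.2% of all genes tested, with 0 past the adjusted threshold. Cox17, a copper chaperone of complex IV, was at 9.31, 9.47 and 9.55 in T173I and at 9.23, 9.18 and 9.10 in WT, without overlap (difference 0.27, limma adjusted p = 0.46). Cox20, a chaperone of subunit 2 of complex IV, was at 10.36, 9.90 and 10.50 in T173I and at 10.96, 10.71 and 10.58 in WT (difference -0.49, limma adjusted p = 0.48). The complex I assembly factors Ndufaf5 and Ndufaf7 were higher by 0.46 and 0.32 (limma adjusted p = 0.45 and 0.47).

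Mitochondrial ribosomal protein genes leaned upward, with 45 of 70 tested members positive and a median of 0.043 over 71 genes. At an unadjusted p under 0.05, 1 was lower and 0 higher, 1.43% of the list against 10.2% of all genes tested. That 1 gene was Mrps18c, lower by a difference of -0.25 (limma adjusted p = 0.49). Protein import genes did likewise, with 15 of 22 tested members positive (median 0.041 over 23 genes), Timm21 lower by a difference of -0.23 (limma adjusted p = 0.48). On T173I replicate 2 the median of the ribosomal list was 0.085 above the WT mean and that of the import list 0.17 above it, whereas the oxidative phosphorylation genes were at -0.15. The low values on that array were therefore not shared by these 2 other mitochondrial lists.

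The tricarboxylic acid cycle list had a median of -0.013, with 9 of 16 members negative. Idh2, the mitochondrial NADP-dependent isocitrate dehydrogenase, was at 10.62, 10.04 and 10.52 in T173I and at 10.75, 10.89 and 10.80 in WT (difference -0.42, limma adjusted p = 0.48; -0.24 without T173I replicate 2). Of 16 regulators of mitochondrial biogenesis 11 had negative differences (median -0.044). Ppargc1a, the coactivator PGC-1alpha, was at 8.47, 7.76 and 7.85 in T173I and at 8.23, 8.80 and 9.32 in WT. T173I replicate 1 lay inside the WT range and the other T173I arrays below it (difference -0.76, limma adjusted p = 0.49; -0.98 without T173I replicate 1 and -0.62 without replicate 2). Tfam, which maintains mitochondrial DNA, was at 8.72, 8.53 and 8.76 in T173I and at 8.78, 9.0 and 8.83 in WT, without overlap (difference -0.20, limma adjusted p = 0.52). Among 7 genes for cytochrome c and inner and outer membrane carriers the median was 0.0067, and the differences of all 7 lay between -0.060 and 0.088. Of 6 related genes that the symbols leave out, 4 had negative differences, among them the ATP synthase inhibitor Atpif1 at -0.20 (limma adjusted p = 0.55), and Ndufab1, the acyl carrier protein of complex I, differed by 0.12.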

How the data were processed

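RNA from 6 arrays was measured on Affymetrix whole-transcript arrays. The deposited log2 values were made by the authors with RMA, per the submitters' processing notes; which version, and with which probe set definition, is not stated. RMA aligns signal distributions, so a shift of most transcripts would not be seen. Arrays have no read depth, and their number limits the precision. Of 41345 probe sets, 23521 had 1 symbol in the platform annotation; the one with the highest mean stood for a gene. The 40% of 22180 genes with the lowest mean (log2 5.37 or less) were left out. limma (3.58.1, R 4.3.3; lmFit and eBayes, no covariate) tested T173I minus WT over 13308 genes, with Benjamini-Hochberg adjustment and a threshold of 0.05, and was tested on simulated data. The members, lists and named genes were chosen with earlier results of these data known. For each complex the text names the 4 genes with the smallest p, the brightest and dimmest, isoform groups, and up to 4 genes of each surrounding list. The roles of subunits were grouped after the values were seen. Many of these genes have processed pseudogenes, and some probe sets may read both. Of the members, 13 had exactly equal values on some arrays. The labels do not say whether replicate numbers pair arrays. Deviations from the group mean correlated little between arrays of the same number (0.048 to 0.067), and arrays of unlike number were not compared. Alternatives covered the filter, prior, normalization, probe set rule, weights, block and leaving out each array.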

Additional observations from a re-analysis of the deposited data

How the results depend on the processing

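Under all alternatives with all 6 arrays, 0 genes passed the adjusted threshold by limma, as in the reported test, in which 1357 genes had an unadjusted p under 0.05. Leaving out 1 array gave 0 to 156 genes, the 156 without T173I replicate 1, with no oxidative phosphorylation gene among them. At an unadjusted p under 0.05, leaving out 1 array gave 0 to 13 lower and 0 to 2 higher oxidative phosphorylation genes, the 13 and the 2 without T173I replicate 1. Array weights gave 10 lower and 2 higher, the mean of all probe sets 0 lower, and the stricter filter 0 higher. Without T173I replicate 1, 20.3% of the members and 22.1% of all genes tested had such a p, and with array weights 16.2% of the members and 21.5% of all genes tested. The labels do not say whether replicate numbers pair the arrays. With the replicate block 1 oxidative phosphorylation gene was lower and 0 higher. Over all genes tested, 1508 then had an unadjusted p under 0.05, and the lowest limma adjusted p was 0.15, against 0.34 in the reported test. The number of tested members with a negative difference, a count chosen after seeing the data, was 50 (without T173I replicate 2) to 61 (without T173I replicate 1) over all alternatives. The complex IV median was -0.16 under the stricter filter and -0.088 to 0.017 leaving out 1 array (0.017 without WT replicate 1, 0.0030 without T173I replicate 2), and that of complex V -0.12 to -0.059. The sign turned under the mean of all probe sets for Atp5h (0.028), and under array weights for Atp5j2 (-0.029), Cox6b2 (-0.089), Cox7a2 (0.079), Cox7b (0.00268), Sdhc (0.011), Uqcrb (0.00953), Uqcrq (0.076) and Slc25a4 (-0.043). Leaving out 1 array, it turned for Atp5g1 (-0.059 to 0.22), Atp5g3 (-0.058 to 0.044), Atp5j2 (-0.0020 to 0.13), Cox6b2 (-0.13 to 0.11), Cox7a2 (-0.088 to 0.064), Cox7a2l (-0.20 to 0.071), Sdhc (-0.086 to 0.044), Uqcr11 (-0.017 to 0.10), Uqcrh (-0.13 to 0.022), Uqcrq (-0.063 to 0.067), Slc25a5 (-0.014 to 0.15) and Slc25a4 (-0.016 to 0.076). Signs were followed only for the genes picked by the naming rule of the processing section, so these lists are not complete for the members. Outside that rule, Ndufa6 (difference -0.16) was above the WT mean on T173I replicates 1 and 3, by 0.12 and 0.042. Ndufa11 (difference -0.025) was above it on the same arrays, by 0.25 and 0.055. The signs of both therefore also turned without T173I replicate 2. None of these genes passed the test, and the cause was not tested.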
